A study of Mus musculus with 6 samples.

Results

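Glutathione synthesis, recycling and peroxide reduction were followed through 10 genes in MA-10 cells, a mouse Leydig tumour cell line, after silencing of 2 transcription factors of the MEF2 family. They are the cystine importer gene Slc7a11, the synthesis genes Gclc, Gclm and Gss, the glutathione reductase gene Gsr, and the glutathione peroxidase genes Gpx1, Gpx3, Gpx4, Gpx7 and Gpx8. They were chosen by name, with earlier results of these data known, and each was represented by its probe set with the highest mean signal. All 10 were on the array, out of 22085 named genes. In 3 samples, called siRNA MEF2, the transcripts of MEF2A and MEF2D were targeted by small interfering RNA, and 3 samples called siRNA control received a scrambled one. RNA was taken after 48 h. All samples shared the same line and medium with horse serum, and no hormone or oxidant treatment is named in the labels. MA-10 is a single transformed line and not a testis. The labels number the samples but do not say whether they were separate cultures, so the replicate spread behind each p-value may be technical. In bulk RNA, fewer cells of a type and less RNA per cell cannot be told apart.

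Glutathione is a small peptide of glutamate, cysteine and glycine that keeps the cell interior reduced. The system xc- transporter, whose light chain is the product of Slc7a11, brings in cystine as the source of cysteine. Glutamate-cysteine ligase, made of a catalytic subunit from Gclc and a modifier subunit from Gclm, joins glutamate to cysteine in the rate-limiting step, and glutathione synthetase from Gss adds glycine. Peroxidases spend glutathione on peroxides, and glutathione reductase from Gsr regenerates it with NADPH. Steroid-making cells run cytochrome P450 reactions that leak reactive oxygen, and the genes of synthesis are well-known targets of the transcription factor NFE2L2.

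Promoter sequences are shown for the synthesis genes Gclm and Gss, both called below, and for the cystine importer gene Slc7a11, which was not called but held a motif match. RefSeq tables of the assembly GRCm38.p6 held entries for 8 of the 10 genes, all but Gclc and Gsr. The 250 bases before the annotated start site were searched on both strands. The antioxidant response element core TGACNNNGC, the kind of site that NFE2L2 binds, matched 1 of the 8 genes, Gclm, and stood in 10.2% of all 32851 promoters of that length. The amino acid response element TGATGCAAN, a kind of site known to be bound by ATF4, matched Slc7a11 at 2 places and stood in 0.785% of all promoters. No match to the MEF2 element or to the AP-1 element TGACTCA was found in these windows of the 8 genes (2.92% and 4.46% of all promoters). The AP-1 element can overlap the antioxidant core. These matches are descriptions of letters, not of bound sites. The Gclm stretch lies at chr3:122245307-122245556 on the plus strand, the Gss stretch at chr2:155592811-155593060 on the minus strand and the Slc7a11 stretch at chr3:50443614-50443863 on the minus strand. Capitals mark the antioxidant core in Gclm, on its reverse strand, and the amino acid response elements in Slc7a11.
Gclm: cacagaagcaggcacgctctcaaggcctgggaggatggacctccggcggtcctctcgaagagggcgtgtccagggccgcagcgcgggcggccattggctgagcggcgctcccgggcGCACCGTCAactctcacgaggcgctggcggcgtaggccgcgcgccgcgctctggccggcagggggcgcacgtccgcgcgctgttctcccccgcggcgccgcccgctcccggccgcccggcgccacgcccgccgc
Gss: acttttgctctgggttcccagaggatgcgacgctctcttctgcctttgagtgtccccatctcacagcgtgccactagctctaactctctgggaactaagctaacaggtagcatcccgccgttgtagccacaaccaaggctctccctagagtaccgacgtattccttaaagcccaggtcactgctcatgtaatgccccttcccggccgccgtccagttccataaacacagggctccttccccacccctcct
Slc7a11: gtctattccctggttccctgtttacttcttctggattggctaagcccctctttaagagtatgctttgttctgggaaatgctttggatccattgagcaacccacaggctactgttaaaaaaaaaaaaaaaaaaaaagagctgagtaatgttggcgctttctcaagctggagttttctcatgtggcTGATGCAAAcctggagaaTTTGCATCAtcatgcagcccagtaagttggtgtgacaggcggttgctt

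Values are the authors' log2 signals, where a difference of 1 is a doubling, and differences are siRNA MEF2 minus siRNA control. Over all genes the median signal per array lay between 7.82 and 7.89, and the negative control probe sets had medians of 7.16 to 7.53. The second range is a reference for dim genes, not a detection limit. The targeted transcripts were lower in the siRNA MEF2 samples. Mef2a differed by -0.78 and Mef2d by -0.46 (limma adjusted p = 8.43e-05 and 0.00205). Of 6 measured Leydig markers 5 stood above the negative control median on all arrays, namely Lhcgr, Star, Cyp11a1, Cyp17a1 and Nr5a1.

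All 3 genes of the synthesis pathway fell in siRNA MEF2 cells, each to between 0.68 and 0.74 times its control level. None of the 10 genes was called higher. The test was limma with Benjamini-Hochberg adjustment over all 22085 genes, and a call means an adjusted p under 0.05. In counts of genes below, fell and rose mean called lower and called higher. Of the 10 genes 3 were called lower, against 11.7% of all genes, and 0 were called higher, against 9.04% of all genes (limma). At an unadjusted p under 0.05, 4 of the 10 were lower and 1, Gpx3, was higher. Many genes pass that threshold, since Gpx3 (limma unadjusted p = 0.034) stood in place 7077 of 22085 by smallest p. Unadjusted counts, here and for the lists below, are therefore not read as particular to these genes. The median difference of the 10 was -0.08, and that of all genes was 0.04. Bright genes were called lower more often than dim ones in these data. In the brightest 2 of 10 equal classes of mean signal, which hold 7 of the 10 genes, 24.9% and 22.7% of genes were called lower. The groups did not overlap for 5 of the 10 genes, against 40.8% of all genes. In 4 of these the siRNA MEF2 values were the lower ones, against 18.0% of all genes, and in 1 they were the higher ones, against 22.8%.

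**Figure D1:**
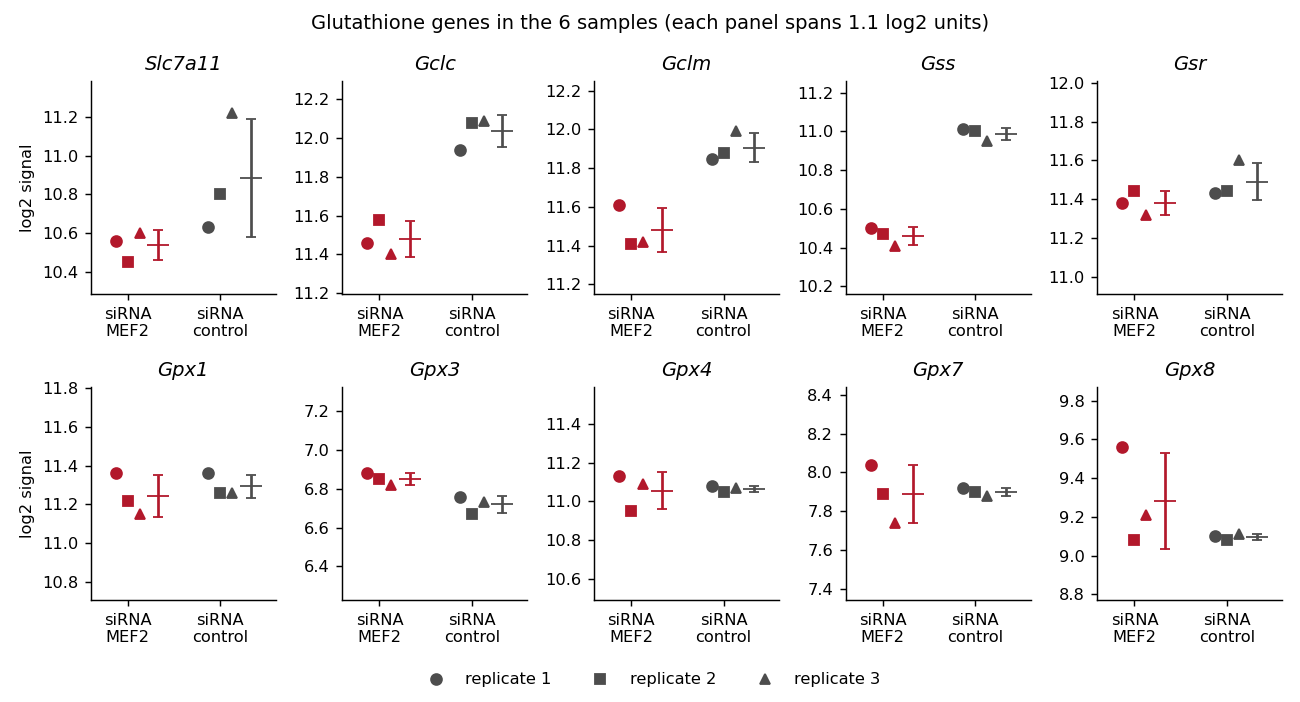
Log2 signal of the 10 genes in each sample, siRNA MEF2 on the left and siRNA control on the right of each panel. Points are arrays, with a separate symbol for each replicate number, and the bar beside them is the mean ± SD of 3 arrays. Gclc, Gclm and Gss lie lower in all 3 siRNA MEF2 samples, while the peroxidase genes Gpx1, Gpx4, Gpx7 and Gpx8 overlap between the groups.

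Gclc, the catalytic subunit of glutamate-cysteine ligase (probe set 10587266), read 11.46, 11.58 and 11.40 in the siRNA MEF2 samples, against 11.94, 12.08 and 12.09 in the siRNA control samples. Every siRNA MEF2 value lay below every control value, by more than the spread within either group. The means were 11.48 ± 0.09 in siRNA MEF2 and 12.04 ± 0.08 in siRNA control (SD, n = 3 each). The difference of -0.56 (SE 0.07, 95% interval -0.70 to -0.41, limma adjusted p = 0.000271) is a 1.47-fold fall and the largest among the 10 genes. Only 0.887% of all genes had a more negative difference.

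Gclm, the modifier subunit that raises the ligase's activity (probe set 10495763), read 11.61, 11.41 and 11.42 in the siRNA MEF2 samples, against 11.85, 11.88 and 11.99 in the siRNA control samples. The groups were again separate, with siRNA MEF2 replicate 1 nearest to the controls. The means were 11.48 ± 0.11 in siRNA MEF2 and 11.91 ± 0.07 in siRNA control (SD, n = 3 each). Gclm fell 1.35-fold, with a difference of -0.43 (SE 0.07, 95% interval -0.58 to -0.28, limma adjusted p = 0.00134). Both subunits of the ligase thus fell, and their intervals overlap; whether they fell by different amounts was not tested.

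Gss, the enzyme that completes glutathione (probe set 10488879), read 10.50, 10.47 and 10.41 in the siRNA MEF2 samples, against 11.01, 11.00 and 10.95 in the siRNA control samples. It had the tightest replicates of the 3 synthesis genes. The means were 10.46 ± 0.05 in siRNA MEF2 and 10.99 ± 0.03 in siRNA control (SD, n = 3 each). Gss fell 1.44-fold, with a difference of -0.52 (SE 0.06, 95% interval -0.65 to -0.40, limma adjusted p = 0.000123). In its class of signal, 59 of 2208 genes, Gss included, had a difference at least as negative.

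Slc7a11, the cystine carrier (probe set 10498024), read 10.56, 10.45 and 10.60 in the siRNA MEF2 samples, against 10.63, 10.80 and 11.22 in the siRNA control samples. The groups did not overlap, but siRNA MEF2 replicate 3 and control replicate 1 lay side by side and control replicate 3 stood far above the other two controls. The means were 10.54 ± 0.08 in siRNA MEF2 and 10.88 ± 0.31 in siRNA control (SD, n = 3 each). The difference of -0.34 (SE 0.12, 95% interval -0.60 to -0.08) did not pass the test (limma adjusted p = 0.0583). It was -0.17 without control replicate 3 (limma adjusted p = 0.169) and -0.47 without control replicate 1 (limma adjusted p = 0.0189). Over all 14 other settings it was called in 5, among them median centring (limma adjusted p = 0.039) and array weights (0.0233) with all 6 arrays kept. Its partner gene Slc3a2, the heavy chain of the transporter, was measured among the other glutathione genes below.

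Gsr, which returns oxidised glutathione to its reduced form (probe set 10571274), read 11.38, 11.44 and 11.32 in the siRNA MEF2 samples, against 11.43, 11.44 and 11.60 in the siRNA control samples. The groups overlapped. The means were 11.38 ± 0.06 in siRNA MEF2 and 11.49 ± 0.09 in siRNA control (SD, n = 3 each). The difference of -0.11 did not pass (95% interval -0.25 to 0.03, limma adjusted p = 0.219), and it was -0.06 without control replicate 3, the brightest array for this gene.

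**Figure D2:**
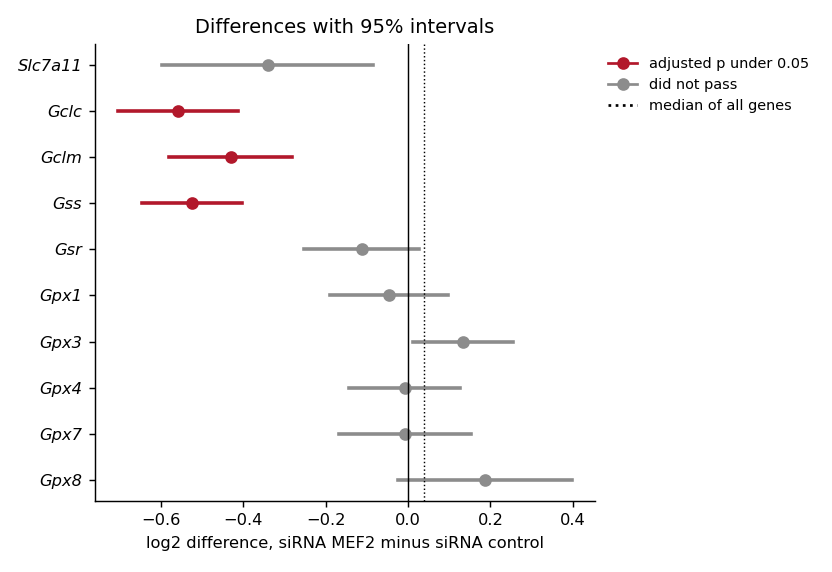
Log2 differences, siRNA MEF2 minus siRNA control, of the 10 genes with their 95% intervals from limma; red marks an adjusted p under 0.05 and the dotted line is the median of all genes, 0.04. The intervals of Gclc, Gclm and Gss lie between -0.70 and -0.28 and do not reach those of Gsr or of any peroxidase gene.

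None of the 5 peroxidase genes was called (limma), against 11.7% of all genes called lower and 9.04% called higher. So small a list without calls is not read as particular to these genes. At an unadjusted p under 0.05, 1 was higher, and the median difference of the 5 was -0.01. Gpx1, the main cytosolic selenium-dependent peroxidase (probe set 10588899), read 11.36, 11.22 and 11.15 in the siRNA MEF2 samples, against 11.36, 11.26 and 11.26 in the siRNA control samples. Its highest values were the same in both groups. The difference was -0.05 (95% interval -0.19 to 0.10, limma adjusted p = 0.625), and it was 0.04 after quantile normalization and 0.03 after cyclic loess.

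Gpx4, the selenium-dependent enzyme that reduces lipid hydroperoxides in membranes, was read by 2 probe sets. The brighter (10363000) read 11.13, 10.95 and 11.09 in the siRNA MEF2 samples, against 11.08, 11.05 and 11.07 in the siRNA control samples. The siRNA MEF2 values lay on both sides of the controls. The difference was -0.01 (95% interval -0.14 to 0.13, limma adjusted p = 0.933), and it was 0.08 after quantile normalization and 0.07 after cyclic loess. The dimmer probe set (10364675) read 11.02, 10.87 and 11.02 in the siRNA MEF2 samples, against 10.97, 10.94 and 10.94 in the siRNA control samples, a difference of 0.02. Both probe sets put siRNA MEF2 replicate 2 lowest.

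Gpx7 and Gpx8 encode peroxidases of the endoplasmic reticulum that carry cysteine in place of selenocysteine. Gpx7 (probe set 10515007) read 8.04, 7.89 and 7.74 in the siRNA MEF2 samples, against 7.92, 7.90 and 7.88 in the siRNA control samples, not far above the negative control medians. Its difference was -0.01 (95% interval -0.17 to 0.15, limma adjusted p = 0.952). Gpx8 (probe set 10412207) read 9.56, 9.08 and 9.21 in the siRNA MEF2 samples, against 9.10, 9.08 and 9.11 in the siRNA control samples. siRNA MEF2 replicate 1 stood far above the controls, replicate 3 slightly above them and replicate 2 among them. The difference of 0.19 did not pass (95% interval -0.02 to 0.40, limma adjusted p = 0.181) and was 0.05 without that replicate.

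Gpx3, the secreted peroxidase found in plasma (probe set 10376201), read 6.88, 6.85 and 6.82 in the siRNA MEF2 samples, against 6.76, 6.67 and 6.73 in the siRNA control samples. All 6 values lay below the negative control medians of their own arrays, so no fold is given. The groups did not overlap, the difference was 0.13 and it did not pass (95% interval 0.01 to 0.25, limma adjusted p = 0.106). The median difference of the 2209 genes in its class of signal was 0.11.

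Spread within a group was not shared evenly over the arrays. Within the siRNA MEF2 samples, replicate 1 was the highest array for 7 of the 10 genes and replicate 3 the lowest for 6. The same count was not made over all genes, so this is not read as particular to the 10. The negative control medians of these arrays ran the other way, at 7.16 on replicate 1 and 7.53 on replicate 3; their part in the spread was not tested. Knockdown was deepest on replicate 1, where Mef2a read 9.80, against 10.12 and 10.10 on replicates 2 and 3. On the same 3 arrays the 3 synthesis genes did not share one order, since Gclc was lowest on replicate 3, Gclm on replicate 2 and Gss on replicate 3. With 3 arrays this was not tested.

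**Figure D3:**
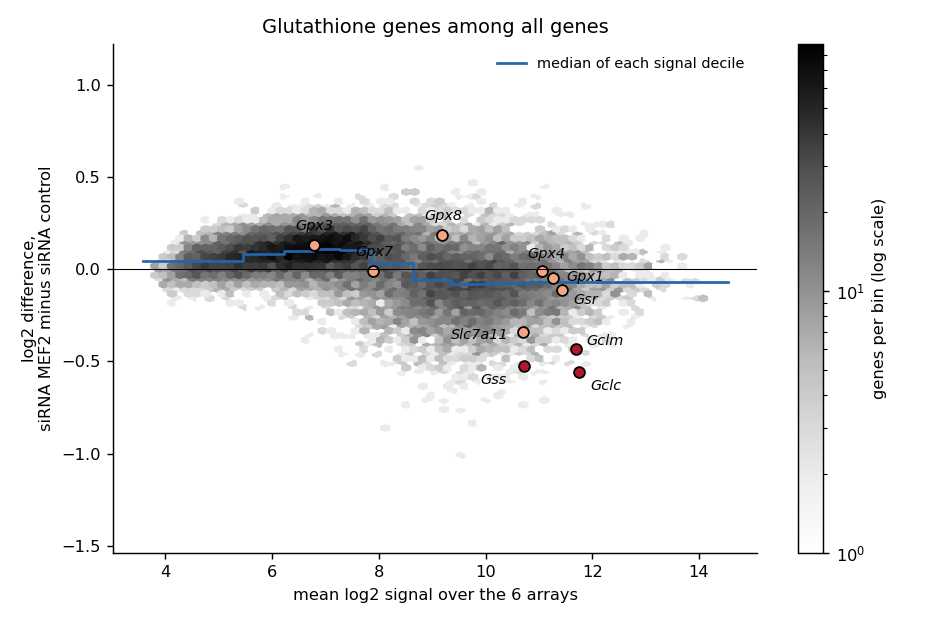
Log2 difference, siRNA MEF2 minus siRNA control, against mean log2 signal over the 6 arrays; grey bins hold all 22085 genes, the blue line is the median of each of 10 equal signal classes, and the circles are the 10 genes, dark red where called. Gclc, Gclm and Gss lie at the lower edge of the bright genes, Slc7a11 above them, and Gsr, Gpx1 and Gpx4 close to the blue line.

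The brightest class of signal had a median difference of -0.07 and the class of Gss and Slc7a11 one of -0.08. Its part in the differences was not tested. After cyclic loess Gclc differed by -0.48, Gclm by -0.35 and Gss by -0.44 (limma adjusted p = 0.00111, 0.00471 and 0.000619). All 3 were called under each of the 14 other settings tried, with differences of -0.61 to -0.35.

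By Euclidean distance between the 6 values, each gene taken relative to its own control mean, the 3 genes nearest to Gclc among 22084 were B230217C12Rik (distance 0.08), Lypd6 and Metap1 (distance 0.09 each). Their differences were -0.56, -0.52 and -0.59. Metap1, a methionine aminopeptidase gene, read 10.78, 10.89 and 10.77 in the siRNA MEF2 samples, against 11.29, 11.44 and 11.49 in the siRNA control samples. Of the 9 other glutathione genes followed here, Gss came nearest to Gclc, in place 78, and Gclm stood in place 398. Over so few arrays this likeness is a description only.

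Beyond the 10 genes, 59 others related to glutathione were followed in lists by role. These included the machinery of selenocysteine and a list of Nfe2l2 with other regulatory genes. All 59 were measured, and calls went in both directions. Of them 12 were called lower, against 11.7% of all genes, and 3 higher, against 9.04% of all genes (limma). In the brightest 2 signal classes 24.9% and 22.7% of genes were called lower, and in the dimmest class 0.272%. The 59 genes lay in dim as well as bright classes, and no share matched to their signal was computed. The count of lower calls is not read as particular to these lists. Their median difference was -0.04, and that of all genes was 0.04. The count of lower calls was 6 without siRNA control replicate 2, 7 without replicate 2 of siRNA MEF2, 7 after quantile normalization and 21 after median centring. Of 9 genes of precursor supply 1 rose, against 9.04% of all genes, and 0 fell, against 11.7% (limma). At an unadjusted p under 0.05, 2 were higher and 1 lower. The called gene was Slc3a2, named after its value was seen. It read 13.14, 13.08 and 13.16 in the siRNA MEF2 samples, against 12.87, 12.94 and 13.01 in the siRNA control samples. Its difference of 0.18 (limma adjusted p = 0.0445) is opposite in sign to that of its partner Slc7a11, which did not pass; the difference between these 2 genes was not tested. The call of Slc3a2 held under 6 of the 14 other settings.

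Among 15 genes of glutathione turnover, 4 fell, against 11.7% of all genes, and 2 rose, against 9.04% (limma). At an unadjusted p under 0.05, 5 were lower and 2 higher. In the signal classes that hold the 4 genes that fell, 22.9% and 26.1% of genes were called lower. Chac1, a stress-induced enzyme that cleaves glutathione, read 9.33, 9.28 and 9.27 in the siRNA MEF2 samples, against 8.63, 8.67 and 8.90 in the siRNA control samples. It rose 1.48-fold (0.56, SE 0.07, limma adjusted p = 0.00038). Its relative Chac2, which also cleaves glutathione, read 9.30, 9.36 and 9.24 in the siRNA MEF2 samples, against 9.67, 9.77 and 9.72 in the siRNA control samples. It fell 1.34-fold (-0.42, SE 0.06, limma adjusted p = 0.000611), so the 2 cleaving enzymes went opposite ways. Oplah, the oxoprolinase that returns glutamate from the breakdown product of the cycle, read 10.65, 10.57 and 10.53 in the siRNA MEF2 samples, against 10.10, 10.12 and 9.97 in the siRNA control samples. It rose 1.43-fold (0.51, SE 0.06, limma adjusted p = 0.000291), and the rise was 0.25 with the mean over its probe sets (limma adjusted p = 0.0092). Cndp2, a dipeptidase that splits cysteinylglycine, and Anpep, an aminopeptidase that acts on the same dipeptide, fell by 0.32 and 0.33 (limma adjusted p = 0.00417 and 0.0167). The call of Anpep was lost after quantile normalization (limma adjusted p = 0.051), without siRNA control replicate 2 (0.0646) and when siRNA MEF2 replicate 2 was left out (0.0764). The fourth fall was that of Ggct, also named after its value was seen, by 0.19 (limma adjusted p = 0.047, called under 7 of the 14 other settings).

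**Figure D4:**
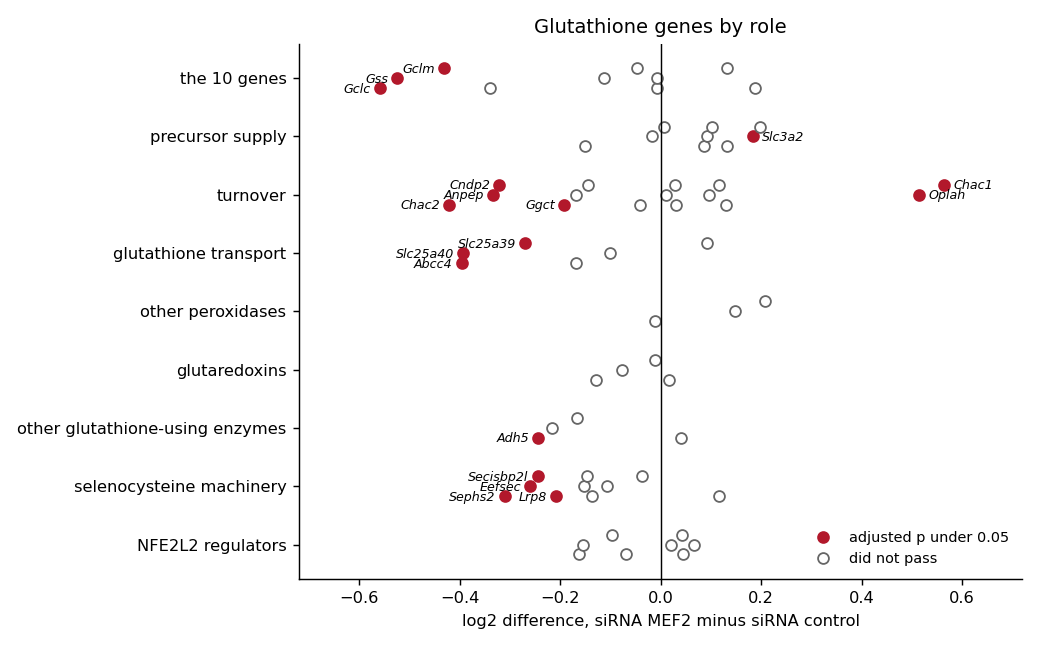
Log2 differences, siRNA MEF2 minus siRNA control, of the 10 genes (top row) and of 59 other genes related to glutathione, by role; filled circles passed an adjusted p under 0.05. Chac1 and Oplah lie at 0.56 and 0.51 on the right, opposite Gclc, Gss and Gclm on the left. None of the glutaredoxins or other peroxidases is filled, nor any gene in the row labelled NFE2L2 regulators, which counts Nfe2l2 itself.

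Of 6 genes of glutathione transport 3 fell, against 11.7% of all genes, and 0 rose, against 9.04% (limma). At an unadjusted p under 0.05, 4 were lower and 0 higher. The 3 that fell were Slc25a40, Abcc4 and Slc25a39. In their signal classes 26.1%, 24.9% and 22.7% of genes were called lower. Slc25a39 and Slc25a40 encode the carriers that bring glutathione into mitochondria. Slc25a39 read 12.01, 11.83 and 11.87 in the siRNA MEF2 samples, against 12.17, 12.17 and 12.18 in the siRNA control samples, and fell by 0.27 (limma adjusted p = 0.0102). Slc25a40 read 9.30, 9.49 and 9.58 in the siRNA MEF2 samples, against 9.79, 9.83 and 9.93 in the siRNA control samples, and fell by 0.39 (limma adjusted p = 0.00375). Abcc4, an exporter of the multidrug resistance protein family, fell by 0.40 (limma adjusted p = 0.0013). All 3 were called under each of the 14 other settings.

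The selenium-dependent peroxidases need a dedicated machinery that makes selenocysteine and inserts it at a stop codon. Of 10 genes of that machinery 4 fell (limma), against 11.7% of all genes and 24.9% in the signal class that holds 3 of the 10. The number that rose was 0, against 9.04% of all genes. At an unadjusted p under 0.05, 6 were lower and 0 higher. Gpx1 and Gpx4, whose products carry selenocysteine, were not called. Sephs2, which makes the selenium donor, fell by 0.31 (limma adjusted p = 0.00626). Eefsec, the elongation factor for selenocysteine, fell by 0.26 (limma adjusted p = 0.0155) and Secisbp2l, a relative of the protein that binds the insertion signal, by 0.25 (limma adjusted p = 0.0128). The calls of Eefsec and Secisbp2l were lost after cyclic loess (limma adjusted p = 0.0632 and 0.0534) and quantile normalization (0.0764 and 0.0711). Both were also lost without siRNA control replicate 2 (0.0586 and 0.0569) or siRNA MEF2 replicate 2 (0.0649 and 0.054), and that of Eefsec without siRNA control replicate 3 (0.0537). The fourth was Lrp8, a receptor for the selenium carrier in blood, named after its value was seen, which fell by 0.21 (limma adjusted p = 0.0414, called under 9 of 13 other settings).

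Adh5 clears glutathione adducts of formaldehyde and nitric oxide. It was the 1 of 4 other glutathione-using enzymes that fell, against 11.7% of all genes, by 0.24 (limma adjusted p = 0.0252). Its call was lost after cyclic loess (limma adjusted p = 0.0943) and quantile normalization (0.103). It was also lost without siRNA control replicate 2 (0.1), siRNA control replicate 3 (0.0728), siRNA MEF2 replicate 2 (0.0934) or siRNA MEF2 replicate 3 (0.0535). Of all genes 11.7% were called lower and 9.04% higher. None of 4 glutaredoxin genes, of 3 other peroxidase genes or of 8 genes in the NFE2L2 list passed the test (limma). That list held Nfe2l2, Nfe2l1, Keap1, Bach1, Mafg, Maff, Mafk and Atf4. At an unadjusted p under 0.05 the numbers were 0 glutaredoxin genes, 2 other peroxidase genes, both higher, and 2 genes of the NFE2L2 list, both lower. Those peroxidase genes, Gpx2 and Gpx6, stood above the negative control median on only 1 and 0 of the 6 arrays. Nfe2l2 read 12.56, 12.50 and 12.51 in the siRNA MEF2 samples, against 12.68, 12.69 and 12.66 in the siRNA control samples. Its groups were separate and the difference of -0.16 missed the threshold (limma adjusted p = 0.06). It passed under 4 of the 14 other settings, which were median centring (limma adjusted p = 0.0169), genes above the median signal (0.0389), a robust variance trend (0.017) and array weights (0.0378). Keap1, its repressor, differed by 0.02 (limma adjusted p = 0.844), which was -0.03 after median centring. The other gene of that list with an unadjusted p under 0.05 was Bach1, named after its value was seen. Bach1 differed by -0.16 with separate groups (limma adjusted p = 0.0608) and was called under 2 of the 14 other settings.

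Markers of peritubular myoid, germ, macrophage and endothelial cells were mostly not above the negative controls on all arrays, unlike those of Sertoli cells. Of 7 Sertoli cell markers 4 stood above the negative control median on all 6 arrays, Sox9, Gata1, Rhox5 and Cldn11. Of 4 peritubular myoid markers this held for Acta2, of 6 germ cell markers for Ddx4, of 5 macrophage markers for Cd68 and of 4 endothelial markers for Cdh5. Adgre1, Csf1r, Ptprc, Cd14, Pecam1, Kdr, Tek, Dazl, Sycp3 and Fshr were among those below it on every array. Summed over each list on the linear scale, with sums divided by 1000, Leydig markers held 15.7 to 17.0 in the siRNA MEF2 samples and 13.8 to 14.8 in the siRNA control samples. The Leydig markers split, with 3 called higher, against 9.04% of all genes, and 2 lower, against 11.7% of all genes (limma). Star, which carries cholesterol into mitochondria, fell by 0.91 (limma adjusted p = 0.000284) and Hsd3b1, a steroid dehydrogenase gene, by 0.46 (0.0234). Hsd3b1 stood above the negative control median on 4 of 6 arrays and was called under 10 of 13 other settings. Lhcgr, the luteinizing hormone receptor gene, rose by 0.45 (limma adjusted p = 0.00389), Cyp17a1, a steroidogenic cytochrome P450 gene, by 0.42 (0.00669) and Nr5a1, a steroidogenic transcription factor gene, by 0.20 (0.0349). The call of Nr5a1 held under 8 of 14 other settings. The Sertoli sum was 3.31 to 3.53 in the siRNA MEF2 samples and 3.05 to 3.28 in the siRNA control samples, and the germ cell sum 0.663 to 0.702 in siRNA MEF2 and 0.564 to 0.612 in siRNA control. Sertoli markers split too, since Gata1 fell by 0.46 (limma adjusted p = 0.000339) while Rhox5 rose by 0.32 (0.00432) and Wt1 by 0.21 (0.0477). The call of Wt1 held under 5 of 13 other settings. Of the 6 germ cell markers 2 rose, against 9.04% of all genes. They were Ddx4, by 0.395, and Prm1, by 0.25 (limma adjusted p = 0.00781 and 0.0145). Prm1 stood above the negative control median on only 3 of 6 arrays and was called under 9 of 13 other settings. The macrophage sum was 0.635 to 0.646 in the siRNA MEF2 samples and 0.686 to 0.783 in the siRNA control samples, and the endothelial sum, nearly all of it Cdh5, 3.91 to 4.03 in siRNA MEF2 and 4.79 to 5.43 in siRNA control. Cd68 fell by 0.54 and Cdh5 by 0.42 (limma adjusted p = 0.000655 and 0.00106), whereas Ptprc and Tek, below the negative control medians, were called higher. These marker values were picked out after they were seen. The peritubular myoid sums overlapped, at 0.624 to 0.655 in siRNA MEF2 and 0.621 to 0.649 in siRNA control. The part of these shifts in the differences of the glutathione genes was not tested.

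**Figure D5:**
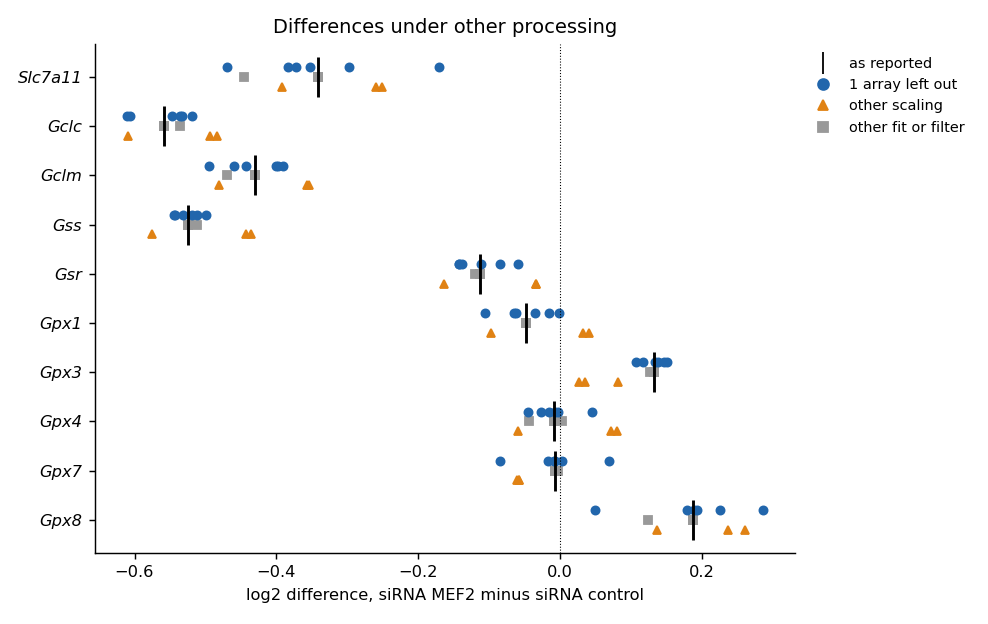
Log2 differences, siRNA MEF2 minus siRNA control, of the 10 genes as reported (black bars) and under the other settings, each a point: 1 array left out, another scaling, or another fit or filter. Gclc, Gclm and Gss stay between -0.61 and -0.35, Slc7a11 spreads from -0.47 to -0.17, and Gpx1, Gpx4 and Gpx7 have points on both sides of 0.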

How the data were processed

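RNA of 6 MA-10 samples was measured on 1-colour whole-transcript arrays, 3 per group by sample title. The authors deposited log2 signals, which per the file headers are RMA values at gene level; RMA and Partek stand, without versions, in the submitters' processing notes. The annotated table and the series matrix (35557 probe sets) were identical. RMA puts arrays on 1 scale, so a shift common to most genes cannot be seen. The number of arrays limits the precision.

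Probe sets were named by deposited symbol or accession through RefSeq (GRCm38.p6, used for names and promoters), and 25523 named probe sets gave 22085 genes. The brightest probe set stood for a gene. Differences were tested with lmFit and eBayes (limma 3.58.1, R 4.3.3), two-sided, without covariates or a filter, and the procedure was tested on simulated data. The genes and lists were chosen with earlier results of these data known. Named are the 10 genes, Mef2a, Mef2d, Nfe2l2, Keap1, the 12 called listed genes with the smallest p and the 3 genes nearest to Gclc. Signal classes were set after the values were seen. Insl3 was not analysed here. Alternatives were 3 scalings, a signal filter, probe set means, a robust variance trend, array weights, a replicate block and leaving out each array. No label names a batch.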

Additional observations from a re-analysis of the deposited data

How the results depend on the processing

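The 3 called genes kept direction and call under all 14 alternatives, and 3 to 4 of the 10 genes were called lower and 0 higher when 1 array was left out. Slc7a11 passed in 5 of 14, among them median centring (adjusted p = 0.039), genes above the median signal (0.0442) and array weights (0.0233). Lower calls among the 59 other genes related to glutathione numbered 7 after quantile normalization and 21 after median centring, and 6 to 13 with 1 array left out. Higher calls among them numbered 4 after quantile normalization, 2 after median centring and 2 to 3 with 1 array left out. All called genes numbered 4577, and 2482 to 4287 with 1 array left out (2521 and 2654 without siRNA control replicates 2 and 3, 2482 without siRNA MEF2 replicate 2). Split calls were 2580 lower and 1997 higher, 1700 and 1376 after quantile normalization, 1924 and 1171 after cyclic loess and 3589 and 826 after median centring. Above the median signal they were 2776 and 961.

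Signs turned only for genes not called among those named. Gpx1 was 0.0409 after quantile normalization and 0.0326 after cyclic loess, Gpx4 was 0.0806, 0.0725 and, with the mean over probe sets, 0.00362, and Keap1 was -0.0306 after median centring. With 1 array left out Gpx4 ran from -0.0455 to 0.0462, Gpx7 from -0.0845 to 0.0698 and Keap1 from -0.0294 to 0.0565. The cause was not tested.

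With the replicate number as a block, 4 of the 10 genes were called lower, the fourth being Slc7a11 (adjusted p = 0.00765), 5 of the other glutathione genes were called higher and 5316 genes were called in all. Same-numbered samples deviated together by 0.113, 0.0763 and 0.0961 and every sample correlated best with its own number, a hint from the data and not the design, so the block is not taken as a pairing. Signal limits Gpx3, which lay below the negative control medians.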
